A study of Mus musculus with 2 samples.

Results

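Transcripts of integrin and focal adhesion genes were followed in cultured mouse myofibroblasts of the small intestine after contact with eosinophil material. The set was defined by gene symbol and not by a cut on measured values, though it was chosen with earlier results of these data known. It held every integrin alpha and beta subunit gene of the array and 12 named genes of the focal adhesion, and 35 of 22180 named genes on the array belonged to it, 25 integrin genes and 10 focal adhesion genes. Itga10, Ilk and Ptk2 have no probeset paired with that gene alone and are not analysed here.

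The stimulated group was 1 array of wild-type BALB/c myofibroblasts that had been kept for 1 day with homogenised eosinophils of the intestine (5 mg/ml), and the non-stimulated group was 1 array of the same kind of cells without homogenate. Eosinophils are granulocytes that are common in the intestinal wall, and subepithelial myofibroblasts are contractile, matrix-producing cells just beneath the gut epithelium. Each array carried RNA pooled from 3 cultures, so there was no replicate, no error and no test, and each difference describes 1 pool against another. Differences are stimulated minus non-stimulated RMA values on the log2 scale, and a fold is 2 raised to the size of the difference. In bulk RNA a smaller number of cells of a type and less RNA per cell cannot be told apart.

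Integrins are receptors made of an alpha and a beta chain that span the cell membrane. The alpha chain largely sets which matrix protein is bound, and the beta tail is gripped inside the cell by talin and kindlin, which connect it through vinculin and other adaptors to actin. In myofibroblasts such adhesions carry contractile force to collagen and fibronectin, and several integrins that hold the alpha v chain release active transforming growth factor beta from its latent complex.

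Markers of the labelled cell type were present. All 13 myofibroblast markers were above background, with Vim at 13.16 on the stimulated and 13.10 on the non-stimulated array, Acta2 at 12.78 with homogenate and 13.07 without, and Col1a1 at 12.83 with homogenate and 12.85 without. Background was set by 1407 receptor probesets for smell and pheromones, whose 95th percentile was 5.57 on the stimulated and 5.58 on the non-stimulated array, and 14068 genes passed it on at least 1 array. A label field names eosinophils as the source of both samples. Of 10 eosinophil markers 2 were above background, and the granule genes Epx (5.25 with homogenate and 4.73 without) and Prg2 (4.32 with homogenate and 4.75 without) were under it on the stimulated and the non-stimulated array.

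Among the integrin and focal adhesion genes, 30 of 35 were above background, 29 of them on both arrays. The main difference was a lower value of the collagen-binding alpha subunit genes Itga11 and Itga1 on the stimulated array, while Itgb1, the beta chain with which both pair, differed by 0.00. Of the 30 genes, 6 were at least 1.2-fold lower on the stimulated array, namely Itga11, Itga1, Itgb7, Tns1, Itga8 and Vcl, and none was at least 1.2-fold higher. Over all genes above background, 6.91% were at least 1.2-fold lower and 6.11% at least 1.2-fold higher. At 1.5-fold, 1 gene was lower (Itga11) and none higher, where all genes gave 0.64% lower and 0.796% higher. None reached 2-fold, as 0.0426% of all genes did downwards and 0.192% upwards. The median difference of the 30 was -0.08, beside 0.00 for all genes. By sign alone 21 were lower and 9 higher, where of all 14068 genes above background 6775 were lower and 7066 higher. Of the 30, 13 differed by less than 0.1 in either direction.

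Start-site sequences of the 2 collagen-binding subunit genes with the largest differences and of Vcl and Zyx, which link integrins to actin, are shown because these genes were lower on the stimulated array to different degrees. Each is the 250 bases before the annotated start, from RefSeq on build GRCm38.p6. They lie at chr9:62677605-62677854 on the plus strand, chr13:115101965-115102214 on the minus strand, chr14:20929148-20929397 on the plus strand and chr6:42349578-42349827 on the plus strand. Capitals mark matches to 5 motifs searched on both strands.
Itga11: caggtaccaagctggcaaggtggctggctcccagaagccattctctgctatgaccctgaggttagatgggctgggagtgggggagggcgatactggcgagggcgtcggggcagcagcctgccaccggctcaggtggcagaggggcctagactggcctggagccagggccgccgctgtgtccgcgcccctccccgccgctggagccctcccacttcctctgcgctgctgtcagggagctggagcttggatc
Itga1: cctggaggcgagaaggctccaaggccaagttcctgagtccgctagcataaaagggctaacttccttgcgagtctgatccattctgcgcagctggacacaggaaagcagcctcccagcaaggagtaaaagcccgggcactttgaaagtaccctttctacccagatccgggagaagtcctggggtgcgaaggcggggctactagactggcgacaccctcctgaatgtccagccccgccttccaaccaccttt
Vcl: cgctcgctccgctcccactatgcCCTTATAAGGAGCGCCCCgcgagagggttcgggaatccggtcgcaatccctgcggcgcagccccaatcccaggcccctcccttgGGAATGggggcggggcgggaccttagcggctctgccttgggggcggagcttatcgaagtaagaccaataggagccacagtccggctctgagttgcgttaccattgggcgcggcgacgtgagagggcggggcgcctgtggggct
Zyx: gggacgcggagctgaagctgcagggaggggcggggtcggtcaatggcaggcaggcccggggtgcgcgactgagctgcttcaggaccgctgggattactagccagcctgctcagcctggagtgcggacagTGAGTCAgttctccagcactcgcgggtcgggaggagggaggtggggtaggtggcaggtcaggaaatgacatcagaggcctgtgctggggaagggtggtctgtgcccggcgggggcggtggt

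The motifs were the CArG box, which binds serum response factor, the AP-1 element TGANTCA, the TEAD element GGAATG, the Smad-type element CAGACA and the NF-kB site. The windows of Itga11 and Itga1 held none of them. The Vcl window held a CArG box 227 to 218 bases before the start, a NF-kB match that overlaps it by 2 bases, and GGAATG 143 to 138 bases before the start. In the Zyx window the match was TGAGTCA, 121 to 115 bases before the start. RefSeq windows were at hand for 25 of the 35 genes (30 windows). The CArG box was in 3 of these 30 windows (Vcl, Fermt2 and Itgb6), beside 1.47% of 32851 windows of all genes. GGAATG was in 2 of 30, beside 12.6% of all windows, and CAGACA in 5 of 30, beside 17.1%. TGANTCA was in 2 of 30, beside 6.75%, and the NF-kB site in 2 of 30, beside 7.25%. These matches describe letters and not binding.

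**Figure D1:**
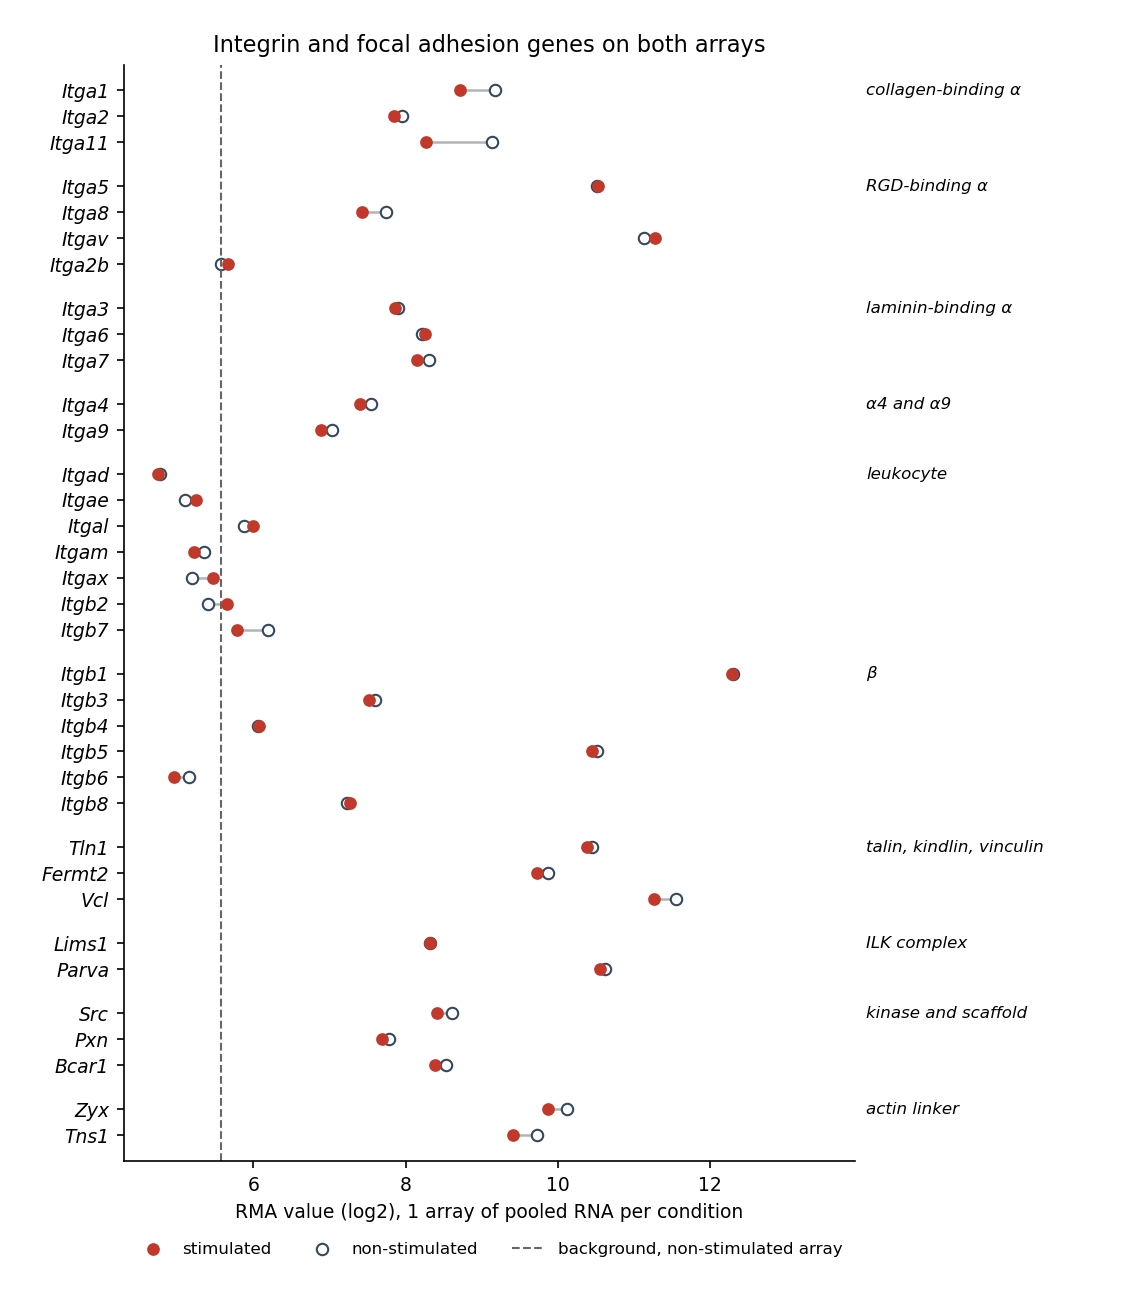
RMA values (log2) of all 35 genes on the stimulated array (filled) and the non-stimulated array (open), grouped by role, with the background level of the non-stimulated array as a dashed line. The 3 widest gaps belong to Itga11 (8.27 with homogenate and 9.14 without), Itga1 (8.71 with homogenate and 9.18 without) and Itgb7 (5.78 with homogenate and 6.20 without), while the points of Itgb1 nearly coincide, and values of different genes come from different probes and cannot be ranked against each other.

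Of the collagen receptor subunit genes, Itga11 and Itga1 had the lowest differences of the 30 genes. Itga11, whose product binds fibrillar collagen on fibroblasts, read 8.27 on the stimulated and 9.14 on the non-stimulated array, a difference of -0.87 or 1.82-fold lower. It held place 13 from the bottom among the 14068 genes above background. Itga1, whose product binds collagens including type IV collagen of basement membranes, read 8.71 with homogenate and 9.18 without, a difference of -0.47 or 1.38-fold lower, at place 205. Itga2, another collagen receptor chain, read 7.84 with homogenate and 7.96 without, a difference of -0.11, which 22.4% of all genes matched or undercut. All 3 measured collagen-binding subunit genes were lower on the stimulated array, with differences that ranged from -0.87 to -0.11. Among genes of their ligands, Col1a1, Col1a2 and Col3a1 differed by -0.02, 0.00 and 0.00, and Col13a1, a collagen of the cell membrane, read 6.07 with homogenate and 5.79 without, 1.21-fold higher.

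Genes of subunits that recognise the RGD motif of fibronectin, vitronectin and related proteins went different ways. Itga8, whose product pairs with the Itgb1 chain and binds nephronectin and fibronectin, read 7.43 on the stimulated and 7.74 on the non-stimulated array and was 1.25-fold lower. Itga5, the alpha chain of the main fibronectin receptor, read 10.52 with homogenate and 10.51 without. Fn1, the fibronectin gene, read 13.31 with homogenate and 13.28 without. Itgav, the alpha v chain, read 11.27 with homogenate and 11.14 without, 1.10-fold higher. A second Itgav probeset read 5.54 with homogenate and 5.14 without, under background on both arrays, and was not used for the gene. Itga2b, the platelet fibrinogen receptor chain, read 5.67 with homogenate and 5.58 without and lay at the background level. Of these 4 genes only Itga8 passed 1.2-fold.

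Genes of laminin-binding subunits showed small differences. Itga3 read 7.86 on the stimulated and 7.91 on the non-stimulated array, and Itga6 read 8.26 with homogenate and 8.22 without. Itga7, a laminin receptor chain known best from muscle, read 8.15 with homogenate and 8.30 without, a difference of -0.15. The laminin chain genes Lama4, Lamb1 and Lamc1 and the laminin-binding nidogen gene Nid1 were slightly higher, by 0.10, 0.14, 0.07 and 0.12. Itga4, which binds VCAM-1 and fibronectin, read 7.40 with homogenate and 7.55 without, and Itga9, which binds tenascin-C among other ligands, read 6.89 with homogenate and 7.03 without. Their differences of -0.15 and -0.14 were nearly equal.

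On probesets of their own, beta subunit genes outside the leukocyte chains differed by less than 0.1 where they were above background. Itgb1, the partner of most matrix-binding alpha chains, read 12.29 on both arrays. Itgb5, which pairs with the alpha v chain, read 10.45 on the stimulated and 10.51 on the non-stimulated array. Itgb3, the other vitronectin receptor beta chain, read 7.52 with homogenate and 7.60 without. Itgb8, which with alpha v activates latent transforming growth factor beta, read 7.27 with homogenate and 7.23 without, and Itgb4, the hemidesmosome chain of epithelia, read 6.08 with homogenate and 6.06 without. Itgb6, an epithelial chain, was under background on both arrays at 4.96 with homogenate and 5.16 without. The 5 measured chains differed by between -0.08 and 0.04.

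Of the integrin genes typical of leukocytes, 4 of 7 were under background on both arrays. These were Itgad (4.74 on the stimulated and 4.78 on the non-stimulated array), Itgae (5.25 with homogenate and 5.10 without), Itgam (5.22 with homogenate and 5.36 without) and Itgax (5.48 with homogenate and 5.19 without). Itgb7, which pairs with the alpha 4 chain in gut-homing lymphocytes, read 5.78 with homogenate and 6.20 without, 1.33-fold lower. Itgb2, the shared beta chain of leukocyte integrins, read 5.66 with homogenate and 5.40 without and was under background without homogenate, which leaves a bound of at least 1.06-fold higher. Itgal, a lymphocyte chain, read 5.99 with homogenate and 5.88 without. When all genes above background were ordered by mean value and divided into 4 equal sets, these 3 genes fell in the dimmest, where 14.1% were at least 1.2-fold lower and 10.9% at least 1.2-fold higher. Of 12 pan-leukocyte markers 5 were above background, among them Cd53 (9.56 with homogenate and 9.73 without), Cd37 (6.10 with homogenate and 6.21 without) and Fcer1g (6.03 with homogenate and 6.04 without), and their list averaged 5.56 on the stimulated and 5.65 on the non-stimulated array. Ptprc, the defining leukocyte gene, read 3.95 with homogenate and 4.16 without, under background. Of 8 lymphocyte markers 1 was above background, Cd4 (5.58 with homogenate and 5.26 without), while Cd79b (5.29 with homogenate and 5.43 without) and Cd3d (5.40 with homogenate and 5.28 without) were under it. Of 12 macrophage markers 6 were above background, among them Mertk (7.02 with homogenate and 6.98 without), Cx3cr1 (6.81 with homogenate and 6.57 without) and Cd68 (6.52 with homogenate and 6.31 without). The part of such cells in the values of the leukocyte integrins was not tested.

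Known integrin pairs were set out by subunit. Of 24 pairs, 17 had both subunit genes above background on both arrays, 11 of them with Itgb1. The 17 include Itga2b with Itgb3, Itga6 with Itgb4 and Itga4 with Itgb7, in which Itga2b, Itgb4 and Itgb7 are dim and lie near background. In the Itgb1 pairs the beta gene was the same throughout, so that they differ only by the alpha gene, from -0.87 for Itga11 to 0.13 for Itgav. The pairs of Itgav with Itgb3, Itgb5 and Itgb8 combined an alpha gene at 0.13 with beta genes at -0.08, -0.06 and 0.04. In the pair of Itga4 and Itgb7 the beta gene was the lower, at -0.41 beside -0.15 for the alpha gene. Transcript values do not give the amount of paired receptor at the cell surface.

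**Figure D2:**
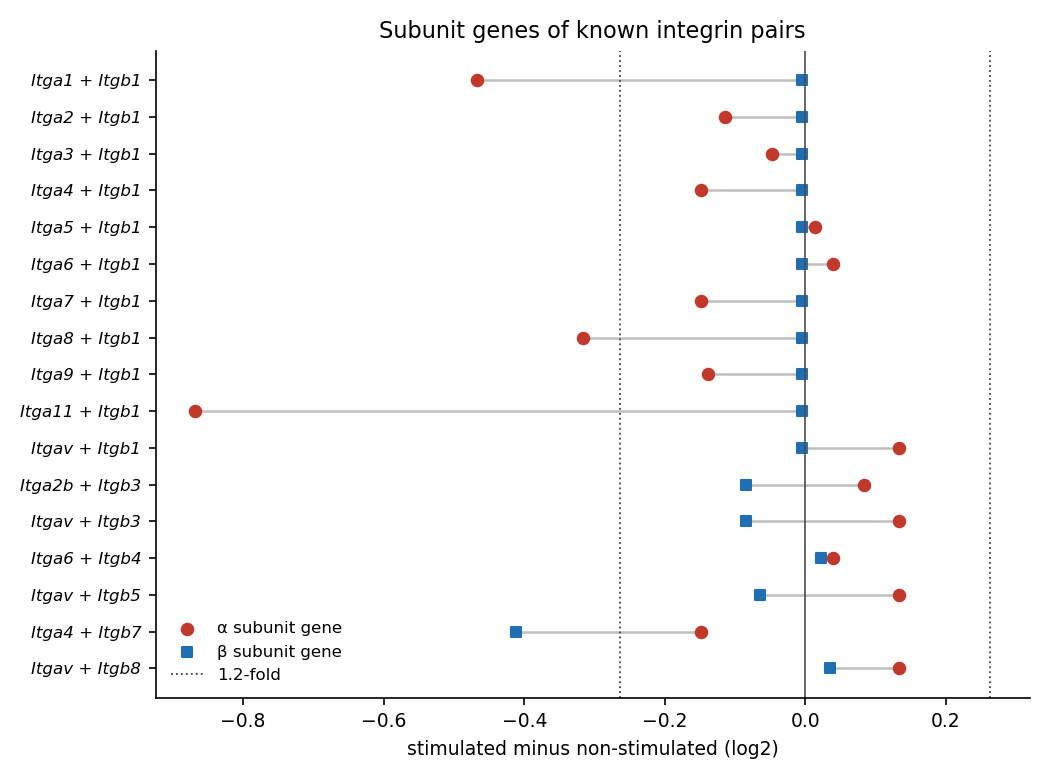
Difference (stimulated minus non-stimulated, log2) of the alpha subunit gene (circle) and the beta subunit gene (square) in the 17 known pairs whose genes were above background on both arrays, with dotted lines at 1.2-fold. In the pairs of Itga11, Itga1 and Itga8 the alpha gene lies beyond the lower line and Itgb1 lies at 0.00. In the pair of Itga4 and Itgb7 the beta gene, which is dim, lies beyond the lower line at -0.41.

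Inside the cell, 9 of 10 focal adhesion genes had a lower value with homogenate and their median difference was -0.14, where 6775 of all 14068 genes above background were lower and 7066 higher. At 1.2-fold, 2 of the 10 were lower (Tns1 and Vcl) and none higher, beside 6.91% lower and 6.11% higher among all genes. Tns1 (tensin, which ties the beta tail to actin filaments) read 9.40 on the stimulated and 9.73 on the non-stimulated array, 1.25-fold lower. Vcl (vinculin, which strengthens the link from talin to actin) read 11.26 with homogenate and 11.55 without, 1.22-fold lower. Zyx (zyxin, found on stress fibres under tension) read 9.86 with homogenate and 10.12 without, just short of the 1.2-fold line at a difference of -0.26.

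Genes of the proteins that switch integrins on and of those that signal from them differed less. Tln1 (talin) read 10.39 on the stimulated and 10.45 on the non-stimulated array, and Fermt2 (a kindlin) read 9.73 with homogenate and 9.87 without. Src, a tyrosine kinase that acts at adhesions, read 8.41 with homogenate and 8.61 without, a difference of -0.19. The scaffold genes Bcar1 (8.39 with homogenate and 8.53 without) and Pxn (paxillin, 7.70 with homogenate and 7.78 without) differed by -0.14 and -0.08. Of the partners of integrin-linked kinase, Parva (parvin) read 10.55 with homogenate and 10.62 without, and Lims1 (PINCH) read 8.33 on both arrays. None of these 7 genes passed 1.2-fold.

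The spread between the arrays was narrower among bright genes. In the brightest of the 4 sets of 3517 genes, the central 95% of differences ran from -0.25 to 0.29, and 2.42% of genes were at least 1.2-fold lower. Of the 12 integrin and focal adhesion genes in it, 4 were at least 1.2-fold lower, Itga11, Itga1, Tns1 and Vcl. In the next set, 1 of 11 was (Itga8), beside 3.07% of its genes.

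**Figure D3:**
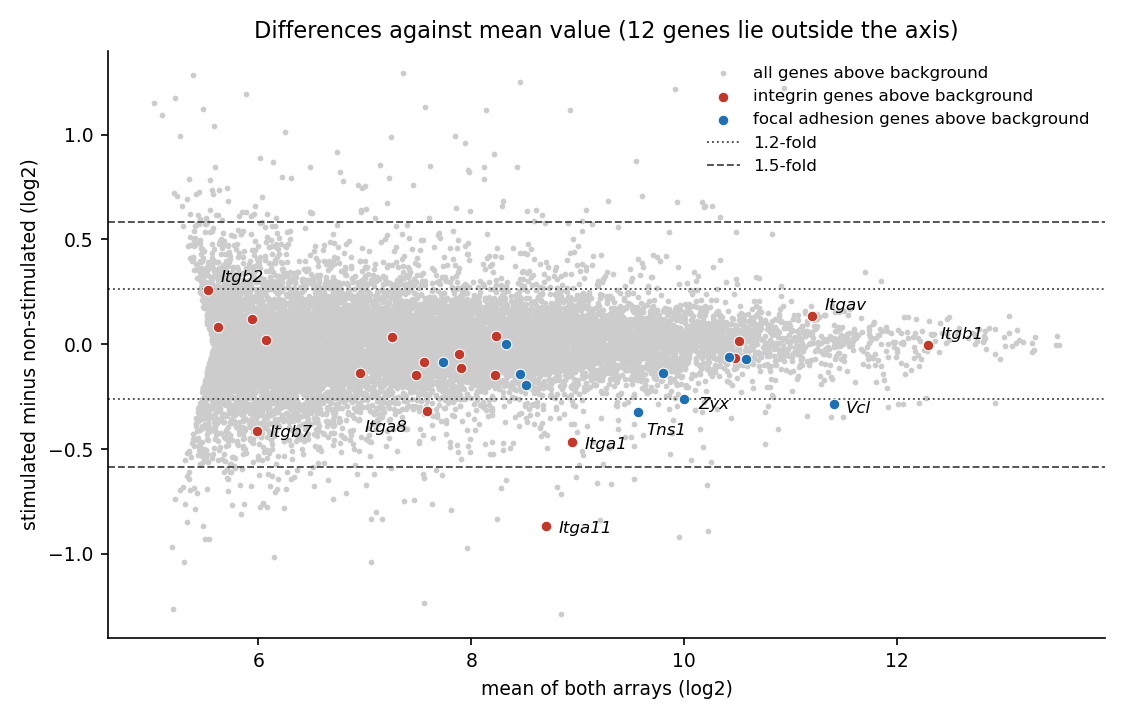
Difference (stimulated minus non-stimulated, log2) against the mean of both arrays for the 14068 genes above background, with the 20 integrin and 10 focal adhesion genes above background in colour and lines at 1.2-fold and 1.5-fold. Itga11 at -0.87 is the only coloured point beyond the 1.5-fold line, Itgb7 and Itgb2 lie among dim genes of wide scatter, and 12 genes fall outside the axis.

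For other proteins of the adhesion site, 67 genes were above background, of 72 named on the array. With homogenate, 5 of them passed 1.2-fold downwards and 1 upwards, shares of 7.46% and 1.49%, and the median was -0.05. Cav1 (caveolin, the coat protein of membrane caveolae) read 8.98 with homogenate and 9.65 without, 1.59-fold lower. The LIM-domain genes Fhl2 (9.21 with homogenate and 9.85 without) and Fhl1 (7.92 with homogenate and 8.44 without), whose products sit on actin and at adhesions, were 1.56-fold and 1.44-fold lower. Cass4, a relative of Bcar1, read 6.06 with homogenate and 6.41 without, and Pdlim7, a PDZ-LIM protein of stress fibres, read 8.48 with homogenate and 8.75 without. Tns3, another tensin, went the other way at 9.34 with homogenate and 9.04 without, 1.23-fold higher, against Tns1. The share of lower genes was close to the 6.91% of all genes, and the share of higher genes lay below their 6.11%. Actn1, Actn4 and Flna, which cross-link actin, differed by -0.13, -0.19 and -0.07. Git1 and Tln2, another talin gene, differed by 0.13 and 0.10. Of the 67 genes of the list, 44 were lower with homogenate and 23 higher, where 6775 of all 14068 genes above background were lower and 7066 higher.

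Genes of integrin ligands were spread to both sides. With homogenate, 5 of 34 genes above background passed 1.2-fold upwards and 4 downwards, and the median was 0.01. These shares of 14.7% and 11.8% stood beside 6.11% and 6.91% of all genes. Tgfb3, whose latent form holds the RGD motif, read 8.79 with homogenate and 9.63 without, 1.79-fold lower, and the matricellular gene Ccn2 read 9.97 with homogenate and 10.53 without, 1.47-fold lower. Among the higher genes were Icam1 (6.62 with homogenate and 6.27 without) and Vcam1 (8.58 with homogenate and 8.29 without), the counter-receptors of leukocyte integrins, at 1.28-fold and 1.23-fold higher. Svep1, a ligand of the alpha 9 chain, read 7.84 with homogenate and 7.51 without. Madcam1, the gut counter-receptor of the Itgb7 pair, read 6.03 with homogenate and 5.51 without and was under background without homogenate.

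Among membrane partners of integrins the largest difference was that of Cd47. This gene of the integrin-associated protein, which binds thrombospondin, read 10.76 on the stimulated and 10.22 on the non-stimulated array, 1.45-fold higher. The thrombospondin gene Thbs1 went the other way, at 11.87 with homogenate and 12.15 without, 1.22-fold lower. Of 17 partner genes above background, 3 (17.6%) were at least 1.2-fold higher and none as much lower, beside 6.11% and 6.91% of all genes. The 3 were Cd47, the tetraspanin gene Cd82 (7.11 with homogenate and 6.84 without) and Mdk (7.43 with homogenate and 7.14 without). Mdk is the gene of a growth factor and not of a membrane protein. The tetraspanin genes Cd9, Cd81 and Cd151 differed by -0.08, -0.07 and -0.09.

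A list of contractile genes is given beside the set for comparison. It also holds genes whose products do not pull themselves, such as Des and Srf, the serum response factor gene. Of the 19 contractile genes above background, 12 were 1.2-fold or more lower with homogenate, a share of 63.2% beside 6.91% of all genes. Of these, 3 were lower by 1.5-fold or more, as 0.64% of all genes were. The median of the list was -0.28. Among the integrins and focal adhesion genes, 6 of 30 were 1.2-fold or more lower, with a median of -0.08. The examples at the low end were Cnn1 (9.88 with homogenate and 10.55 without), Lmod1 (7.24 with homogenate and 7.88 without), Des (7.23 with homogenate and 7.85 without), Myh11 (8.79 with homogenate and 9.31 without), Tagln (10.68 with homogenate and 11.08 without) and Ppp1r14a (6.52 with homogenate and 6.89 without). With 1 array per condition this difference between the lists was not tested. The difference of Itga11, -0.87, lay below that of every contractile gene above background, of which the lowest was -0.67.

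**Figure D4:**
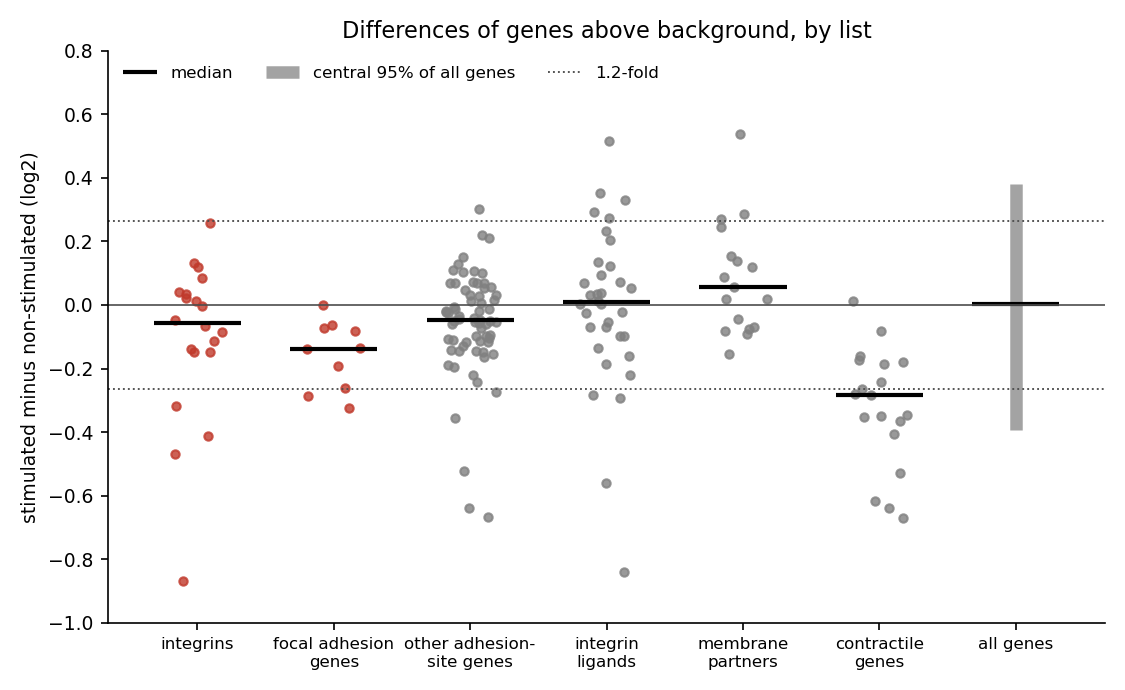
Difference (stimulated minus non-stimulated, log2) of each gene above background in the integrins, the focal adhesion genes, 4 related lists and all genes, with medians as black lines and dotted lines at 1.2-fold. The medians were -0.06 for integrins, -0.14 for focal adhesion genes and -0.28 for contractile genes, and the grey bar shows the central 95% of all genes, from -0.39 to 0.38.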

How the data were processed

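RNA of the 2 arrays was extracted with Trizol, cleaned on columns, amplified and biotin-labelled for the Mouse Gene 2.0 ST array, per the labels' protocols. The deposited values are log2 values, 1 per probeset and array, and the submitters' processing notes name Affymetrix Expression Console and RMA, with versions not given in the sources used here. Its quantile step removes any overall shift, and after sorting the arrays were never more than 0.0757 apart.

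Of 41345 probesets, 23521 were paired with 1 gene by the platform annotation, and 23328 of these took current symbols from the RefSeq table of GRCm38.p6. The probeset with the highest mean stood for a gene. Genes above background on at least 1 array were compared, by folds of 1.2 and 1.5, with no p-value. Members, lists and thresholds were chosen with earlier results of these data known. All members are named, with up to 6 genes at least 1.2-fold apart per related list and up to 3 markers per list. Other genes named beside them were chosen by role after their values were seen. The software was Python 3.11.15, pandas 2.3.3 and statsmodels 0.14.6. Only the counting past a fold and the lowess centring were tested on simulated data. Those data were shuffled differences of these genes, narrowed in range, with planted changes, and could not test the noise between arrays. Alternatives were other backgrounds, probeset means, centring and other folds.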

Additional observations from a re-analysis of the deposited data

How the results depend on the processing

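With 1 array per condition no paired analysis was possible because no replicate exists, and the values carry no error. The number of genes at least 1.2-fold lower was 5 with background at the 99th percentile, where 25 of the genes remain above it, 7 with differences centred on a lowess trend, and 6 otherwise. The number at least 1.2-fold higher was 1 in place of 0 without a background filter (Itgax), with the mean of a gene's probesets (Itgav, at 0.26) and with lowess centring (Itgb2), the first of which lies under background on both arrays. At a threshold of 2-fold 0 genes were lower, against 1 at 1.5-fold. The median of -0.08 kept its sign in all 10 alternatives, between -0.06 for integrins alone and -0.14 for focal adhesion genes alone. Of 175 values of single genes under other settings, none of the genes past 1.2-fold changed sign, and only Itgav moved by more than the spread of genes of like brightness (the half-width of their central 68%). Itgb2, Itgb7, Itgal, Itgb4 and Itga2b are dim and lie near background.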

Other observations

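Probesets paired with a member gene and a neighbouring gene together were 5 in number, and none was used for a gene. Their differences (stimulated minus non-stimulated, log2) ranged from -0.44 to 0.00, and 4 of the 5 were above background. The lowest was that of a probeset shared by Itgb4 and B230344G16Rik, at 5.65 with homogenate and 6.08 without. The others above background pair Ilk with Taf10 or Rrp8. Such probesets cannot be assigned to either gene.

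Of markers of other cell types, 4 of 10 endothelial genes were above background, with Egfl7 at 6.33 on the stimulated and 6.24 on the non-stimulated array, Pecam1 at 5.83 with homogenate and 5.87 without and Kdr at 5.73 with homogenate and 5.80 without. Of 13 epithelial genes 5 were, with Cldn3 at 6.42 with homogenate and 6.66 without, Krt8 at 6.23 with homogenate and 6.45 without and Muc2 at 6.12 with homogenate and 5.99 without. Of 5 platelet genes 3 were, Gp9 at 5.86 with homogenate and 6.16 without, Gp6 at 5.65 with homogenate and 5.70 without and Itga2b at the values given above. Other eosinophil markers were Alox15 at 5.87 with homogenate and 5.68 without, Cebpe at 5.46 with homogenate and 5.91 without and Siglecf at 4.85 with homogenate and 5.43 without, the last under background on both arrays.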
